A study of Mus musculus with 20 samples.

Results

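Sorted microglia of mice that carry both the APP-KI allele and the C3ar1 knockout were set against sorted microglia of WT littermates, across all genes, in the libraries in which fewer than 8000 genes were at 0. By that rule APP-KI;C3aRKO replicates 2 to 5 and WT replicates 4 to 6 were taken, which are 7 of the 20 libraries of the series, and APP-KI;C3aRKO replicate 1 was left out. The members were selected on the number of genes at 0, which is given here as a description with no test. It was 5775, 5025 and 4694 in WT replicates 4, 5 and 6, and 3876, 5508, 5179 and 5343 in APP-KI;C3aRKO replicates 2 to 5. The library just inside the limit was WT replicate 4 with 5775, and the library just outside it was APP-KI;C3aRKO replicate 1 with 8939.

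All animals were 9 months old. The APP-KI allele places the humanized amyloid beta sequence with the Swedish, Iberian and Arctic mutations (NL-G-F) in the mouse App gene, so App is driven by its own promoter and amyloid plaques form without a transgene. The C3ar1 deletion had gone through 5 generations of crosses to C57BL/6J, so segments around C3ar1 can still derive from the line in which the gene was targeted. Both alleles are germline, so every cell of the animal carries them. Cells were freed from perfused brains with papain and sorted as CD45mid and CD11b+, and each library was made from the bulk RNA of such a sort. Both sexes were used in the study, and the labels do not give the sex behind a library. The other groups used for comparison were APP-KI (3 libraries), C3aRKO (3 libraries, in the joint fit only) and, from mice that carry a Td-tomato reporter at C3ar1, cells sorted as C3aR+ from WT (3 libraries) and from APP-KI (3 libraries).

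Microglia are the resident macrophages of the brain. C3ar1 encodes the receptor for C3a, the small fragment released when complement C3 is split, and in the brain it is made mainly by microglia. Around amyloid plaques, microglia lower the genes of the resting or homeostatic state and raise a program that includes lipid handling, lysosomal and surface receptor genes, and that is often called the disease-associated microglia program.

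The files gave 59474448 to 76608464 reads in the 7 libraries. Values are a gene's reads over the 75th percentile of its library's counts, times 1 constant, and are called scaled values below. They are not divided by gene length, so levels are compared between libraries, and where a gene is called the most abundant of its list by scaled value, its length is part of that rank. A single read stood for 0.0132 to 0.0177 scaled units in these libraries. Values of a gene are listed in the order WT replicates 4, 5 and 6, then APP-KI;C3aRKO replicates 2, 3, 4 and 5. Log2 fold changes are APP-KI;C3aRKO minus WT from a limma fit of log2(scaled value + 1) with library series as a term (n = 4 and 3), and a gene was called when its p, adjusted over all 12150 genes tested, was under 0.05.

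Library numbers fell into a ZE24 series (WT replicate 4 and APP-KI;C3aRKO replicates 1 and 2) and a ZE26 series (the other 5 libraries). On the first principal component, which held 68.6% of the variance, the 4 double mutant libraries lay between -35.0 and -16.4 and the 3 WT libraries between 32.0 and 42.3. On the second, with 13.3%, APP-KI;C3aRKO replicate 2 stood at 33.1 and the other 6 libraries between -14.5 and 0.35. APP-KI;C3aRKO replicate 2 is the only double mutant library of its series in the fit, so its own properties and those of the series cannot be told apart. Leaving out APP-KI;C3aRKO replicate 2 gives the same log2 fold changes as the ZE26 libraries alone. So does leaving out WT replicate 4, the only WT library of that series. These settings are therefore not separate checks, though they are listed one by one below.

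The libraries also differed in Y-linked reads. The summed scaled value of Eif2s3y, Uty, Ddx3y and Kdm5d was 83.6, 0.0396 and 0.0863 in WT and 106, 83.2, 83.0 and 78.3 in APP-KI;C3aRKO, and Xist is not listed. Both WT libraries of the ZE26 series were thus near 0, while WT replicate 4 and every double mutant library held such reads. All 4 genes passed the limma test as higher, and by DESeq2, but none of the 4 by edgeR, in the joint fit of 13 libraries described below or with a block on the replicate number (Eif2s3y 5.18, 3.89 and 2.87). On leaving out WT replicate 5, Uty (2.94), Ddx3y (1.70) and Kdm5d (1.62) no longer passed, nor Uty (2.98) and Ddx3y (1.71) without WT replicate 6 or Ddx3y (1.90) without APP-KI;C3aRKO replicate 4. With WT libraries near 0 the size depends on the pseudocount, and at 0.1 Eif2s3y was at 6.32. Within ZE26 the genotype and the presence of Y-linked reads cannot be told apart. In the ZE24 pair, APP-KI;C3aRKO replicate 2 and WT replicate 4, both libraries held Y-linked reads, so the log2 difference between these libraries is given beside the gene groups below, as a median or as the number of genes above 0 and with no replicate check.

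C3ar1, the deleted gene, had scaled values of 276, 329.9 and 340.0 in WT and 77.4, 69.4, 75.9 and 61.9 in APP-KI;C3aRKO. Every double mutant library lay below every WT library, and reads remained in all of them (log2 fold change -2.13, SE 0.10, adjusted p = 1.17e-05). The left-out replicate 1 was at 80.4, beside the other double mutant libraries and not beside WT. The call held in every setting tried. App itself, whose coding sequence but not promoter is changed by the knock-in, had 458, 435 and 439 in WT and 427, 563, 537 and 594 in APP-KI;C3aRKO, with overlapping groups, and did not pass (log2 fold change 0.23, SE 0.10, adjusted p = 0.1).

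Of the 12150 genes tested, 2001 (16.5%) were higher in APP-KI;C3aRKO and 2339 (19.3%) were lower, with a median of -0.04 over all genes on the log2 scale. Larger changes were mostly upward: 491 called genes had a log2 fold change of 1 or more and 187 had -1 or lower. The groups did not overlap for 4536 genes (37.3%), of which 3702 were also called. Adding replicate 1 lowered the counts to 511 higher (4.21% of 12129) and 439 lower (3.62%). A joint fit of 13 libraries of WT, APP-KI, C3aRKO and APP-KI;C3aRKO, without replicate 1, gave 510 and 421; it includes 3 libraries with 8076, 8271 and 8624 genes at 0. Leaving out WT replicate 5 gave 1344 and 1242. Over all settings that left out 1 library the counts ran from 1344 to 1959 higher and from 1242 to 2466 lower. With median ratio scaling 2174 were higher and 1847 lower, by DESeq2 2406 and 2097, and by edgeR 2144 and 1902. Which direction held more calls thus depended on the setting.

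The 10 largest rises were led by genes of the disease-associated program. Gpnmb, a transmembrane glycoprotein of phagocytes, had scaled values of 0.296, 0.370 and 1.60 in WT and 461, 1625, 956 and 1178 in APP-KI;C3aRKO (log2 fold change 9.09, SE 0.28, adjusted p = 1.56e-06). Cst7, the cysteine protease inhibitor cystatin F, had 4.90, 5.71 and 9.21 in WT and 1061, 1714, 1531 and 1822 in APP-KI;C3aRKO (log2 fold change 7.62, SE 0.14, adjusted p = 2.81e-07). Mamdc2, a secreted matrix protein, had 0.148, 0.647 and 0.662 in WT and 116, 239, 254 and 377 in APP-KI;C3aRKO (log2 fold change 7.20, SE 0.20, adjusted p = 9.52e-07). In these genes every WT library was under 10 and every double mutant library above 100, with APP-KI;C3aRKO replicate 2 the lowest of its group. Baiap2l2, a membrane-bending protein, had 0.459, 0.198 and 0.662 in WT and 93.7, 122, 119 and 117 in APP-KI;C3aRKO (log2 fold change 6.30, SE 0.13, adjusted p = 2.81e-07). Spp1, the secreted phosphoprotein osteopontin, had 3.61, 33.6 and 26.2 in WT and 858, 1669.5, 1523 and 1517 in APP-KI;C3aRKO (log2 fold change 6.23, SE 0.32, adjusted p = 1.45e-05). Dkk2, a secreted Wnt antagonist, had 0.0148, 0.542 and 0.432 in WT and 63.2, 85.1, 91.5 and 165 in APP-KI;C3aRKO (log2 fold change 6.14, SE 0.22, adjusted p = 3.21e-06). WT replicate 4 was the lowest WT library for Spp1 and for Dkk2, and neither gene's groups overlapped. Fabp5, a fatty acid binding protein, had 1.14, 0.727 and 1.14 in WT and 64.0, 106, 139 and 119 in APP-KI;C3aRKO (log2 fold change 5.67, SE 0.21, adjusted p = 3.51e-06). Lgi2 had 5.87, 0.555 and 0.949 in WT and 139.8, 134, 79.6 and 185 in APP-KI;C3aRKO (log2 fold change 5.65, SE 0.40), and WT replicate 4 was the highest WT library. Itgax, the integrin chain CD11c, had 34.2, 27.0 and 44.7 in WT and 1302, 1655, 1713 and 2807 in APP-KI;C3aRKO (log2 fold change 5.63, SE 0.24). Atp6v0d2, a subunit of the vacuolar proton pump, had 0.370, 0.661 and 1.09 in WT and 42.7, 83.1, 77.5 and 122 in APP-KI;C3aRKO (log2 fold change 5.45, SE 0.20), again with no overlap. Adjusted p was 5.06e-05 for Lgi2, 6.95e-06 for Itgax and 3.32e-06 for Atp6v0d2. With replicate 1 added, 9 of the 10 were still called; Lgi2, at 0.204 in replicate 1, was not, at a log2 fold change of 4.30. Gpnmb, Mamdc2, Baiap2l2, Dkk2 and Atp6v0d2 had a WT mean under 1. They reached the minimum mean of 1 needed for testing only through the double mutant libraries, so their calls are description only. Where WT values were near 0 the size of the rise followed the pseudocount. At a pseudocount of 0.1 and by DESeq2 the log2 fold changes were 10.35 and 10.43 for Gpnmb, 8.65 and 8.99 for Mamdc2, 7.80 and 8.02 for Baiap2l2, 8.001 and 8.67 for Dkk2, 6.54 and 6.70 for Fabp5, 6.45 and 6.68 for Lgi2 and 6.57 and 6.82 for Atp6v0d2, so the order of these genes depends on it too.

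**Figure D1:**
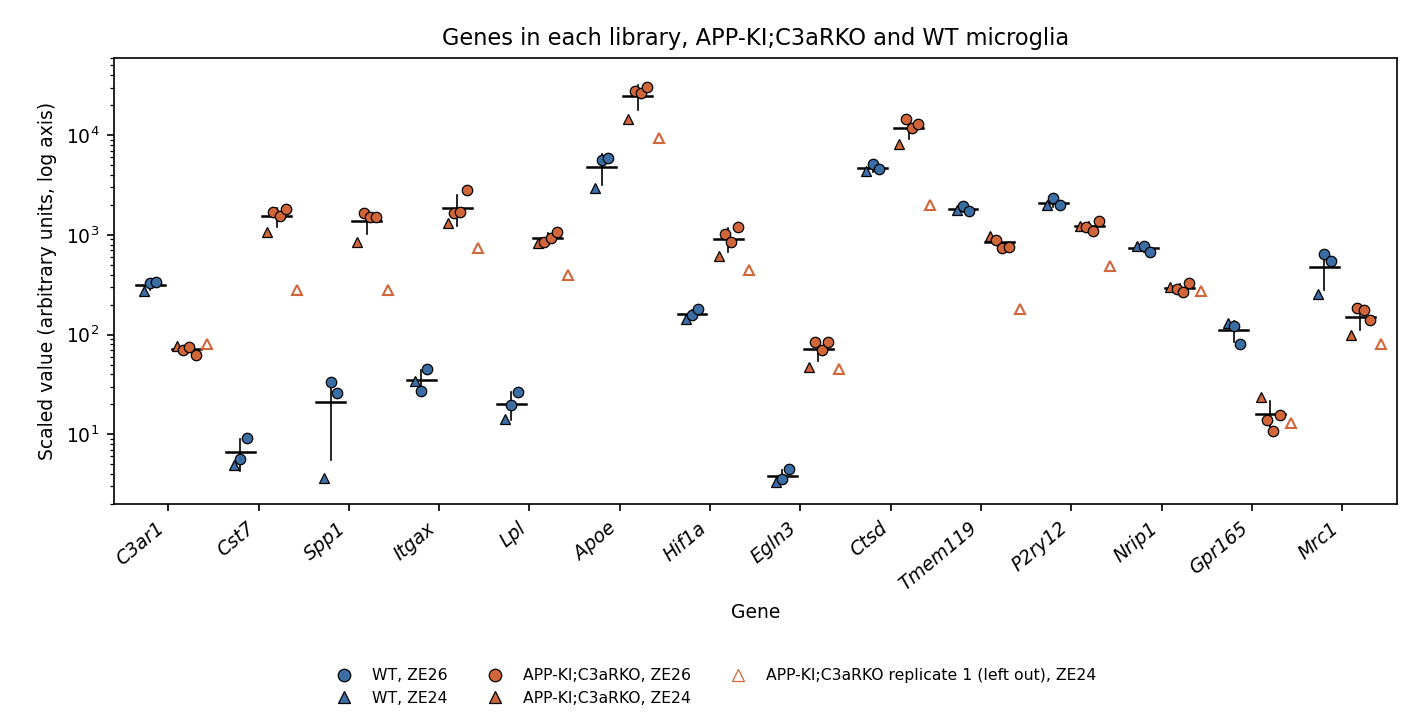
Scaled values (log axis, arbitrary units) of 14 genes in each WT library (blue) and each APP-KI;C3aRKO library (orange); triangles are ZE24 libraries, circles ZE26, the open triangle is the left-out replicate 1, bars are means and vertical lines SD over 3 WT and 4 APP-KI;C3aRKO libraries. For each of the 14 genes the 2 groups do not overlap, and values are not comparable between genes because they are not per length.

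Promoters of 9724 of the 12150 tested genes were found in a RefSeq table (GRCm38.p6) that holds 250 bases before to 50 after each gene's start. Each was searched on both strands for GAGGAAGT, a core of the binding motif of PU.1, the factor that defines myeloid cells. It was found in 3.29% of all 27025 promoters of the table, in 3.22% of those of genes tested, in 3.18% of those of genes higher and in 4.19% of those of genes lower. The promoters of Gpnmb and Spp1, which were among the 10 largest rises, lie at chr6:49036268-49036567, plus strand (Gpnmb) and chr5:104434861-104435160, plus strand (Spp1), and are shown with GAGGAAGT in capitals where it occurs. 
Gpnmb: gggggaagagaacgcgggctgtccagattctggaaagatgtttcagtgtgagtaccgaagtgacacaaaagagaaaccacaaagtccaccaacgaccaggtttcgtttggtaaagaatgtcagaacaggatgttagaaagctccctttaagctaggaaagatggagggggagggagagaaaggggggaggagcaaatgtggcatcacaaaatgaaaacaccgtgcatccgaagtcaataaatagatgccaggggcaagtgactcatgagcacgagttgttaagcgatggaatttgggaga
Spp1: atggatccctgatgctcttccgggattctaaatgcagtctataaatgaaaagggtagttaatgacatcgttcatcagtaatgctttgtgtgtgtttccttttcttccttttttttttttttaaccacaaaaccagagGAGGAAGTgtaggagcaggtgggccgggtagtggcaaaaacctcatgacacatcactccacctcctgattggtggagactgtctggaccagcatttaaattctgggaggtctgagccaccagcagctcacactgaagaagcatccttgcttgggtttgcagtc
Spp1 held the letters once and Gpnmb did not hold them in this window.

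Of the 10 largest falls, Gpr165 and Serpinf1 are members of the homeostatic list. Gpr165, an orphan G protein-coupled receptor, had scaled values of 129.7, 121 and 81.0 in WT and 23.5, 13.9, 10.7 and 15.5 in APP-KI;C3aRKO (log2 fold change -2.70, SE 0.17, adjusted p = 3.55e-05). Ptger3, a receptor for prostaglandin E2, had 24.2, 17.6 and 14.8 in WT and 5.84, 2.58, 1.45 and 0.969 in APP-KI;C3aRKO (log2 fold change -2.48, SE 0.24, adjusted p = 2.29e-04). Mgl2, a lectin of tissue macrophages and dendritic cells, had 24.8, 68.1 and 67.5 in WT and 6.56, 9.84, 10.6 and 8.89 in APP-KI;C3aRKO (log2 fold change -2.41, SE 0.17, adjusted p = 4.99e-05). In all 3 genes the groups did not overlap, and for Mgl2 WT replicate 4 was lower than the other WT libraries. Tmem44 had 102, 66.2 and 67.4 in WT and 29.0, 11.5, 13.4 and 6.32 in APP-KI;C3aRKO (log2 fold change -2.38, SE 0.25, adjusted p = 3.44e-04). Hlf, a transcription factor of the PAR bZIP family, had 60.3, 48.7 and 34.9 in WT and 17.6, 7.61, 4.75 and 5.92 in APP-KI;C3aRKO (log2 fold change -2.34, SE 0.22, adjusted p = 1.76e-04). Bank1, a scaffold protein first described in B cells, had 116, 94.5 and 87.4 in WT and 32.2, 17.6, 15.7 and 13.6 in APP-KI;C3aRKO (log2 fold change -2.28, SE 0.14, adjusted p = 3.01e-05). For these 3 genes APP-KI;C3aRKO replicate 2 was the highest double mutant library and WT replicate 4 the highest WT library. Mycl, a MYC family transcription factor, had 25.3, 35.4 and 26.4 in WT and 7.95, 5.05, 2.94 and 6.17 in APP-KI;C3aRKO (log2 fold change -2.23, SE 0.26, adjusted p = 5.25e-04). Serpinf1, the secreted pigment epithelium-derived factor, had 82.7, 136 and 140.1 in WT and 31.3, 25.5, 25.3 and 18.3 in APP-KI;C3aRKO (log2 fold change -2.20, SE 0.23, adjusted p = 2.85e-04). Neither overlapped between groups. Ccdc85a had 34.8, 16.5 and 15.5 in WT and 11.1, 9.80, 0.706 and 0.0167 in APP-KI;C3aRKO (log2 fold change -2.35, SE 0.74, adjusted p = 0.0413). Eps8l1, related to an actin regulator, had 17.7, 23.2 and 11.9 in WT and 9.79, 5.95, 0.413 and 0.535 in APP-KI;C3aRKO (log2 fold change -2.24, SE 0.65, adjusted p = 0.0307). Both varied widely within the double mutant group, with replicates 2 and 3 high and replicates 4 and 5 near 0. Ccdc85a was no longer called on leaving out WT replicate 4, 5 or 6 or APP-KI;C3aRKO replicate 2, 4 or 5 (log2 fold changes -2.68 to -1.84) and Eps8l1 on leaving out WT replicate 5 or 6 or APP-KI;C3aRKO replicate 4 or 5 (-2.29 to -1.75). Neither was called in the fit with replicate 1 added, in the joint fit or by DESeq2 and edgeR, and the joint fit also ended the calls of Mycl and Serpinf1. At a pseudocount of 0.1 Ccdc85a was at -3.34 and Eps8l1 at -2.89.

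The lists of genes below were set against the same counts over all genes, and 31 such lists were described. In the main fit 16.5% of all genes were higher and 19.3% lower. With replicate 1 added 511 of 12129 genes were higher and 439 lower, and in the joint fit 510 of 12433 were higher and 421 lower. A list count from either of these 2 fits is read beside the counts of that fit. A list named as a study list holds genes that the study itself showed or measured, some of them in libraries of this series. Its direction is therefore not taken as independent evidence. A list member that is named with its log2 fold change alone and lies outside the naming rule was chosen after its values were seen. Medians are over the members tested, and ranges of a count run over the 21 alternative settings.

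**Figure D2:**
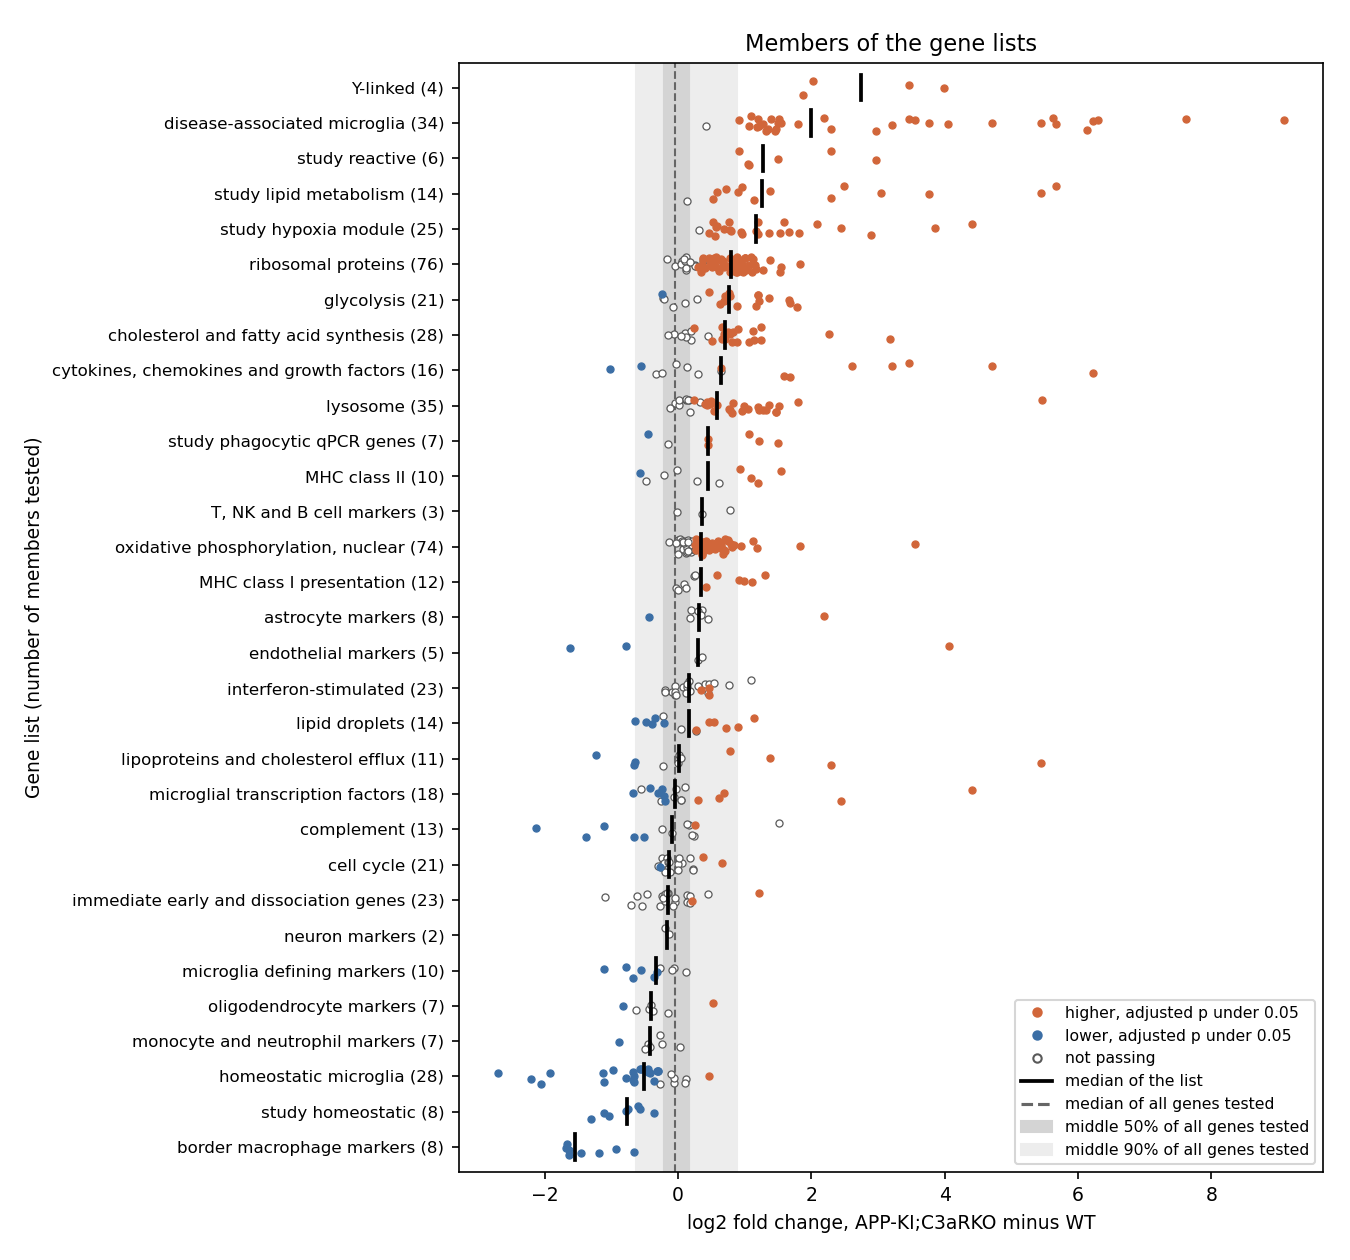
Log2 fold change (APP-KI;C3aRKO minus WT) of each tested member of the 31 gene lists; orange and blue points passed as higher or lower, open points did not pass, black bars are list medians, and the dashed line and grey bands give the median, middle 50% and middle 90% of all 12150 genes. Disease-associated, lipid, hypoxia and ribosomal members lie to the right of the line and border macrophage and homeostatic members to its left.

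The disease-associated microglia program was raised almost as a whole. Of its 34 members tested, 33 were higher and 0 lower, beside 16.5% and 19.3% over all genes, and their median was 1.99 against -0.04. Gpnmb, Baiap2l2 and Dkk2 are among the 33, and their calls are description only, as given above. Lilrb4a, an inhibitory receptor, was the member that did not pass, and Clec7a is not listed in the files. Axl, a receptor tyrosine kinase that binds dying cells, had scaled values of 67.2, 129 and 206 in WT and 749.7, 1133, 1154 and 1082 in APP-KI;C3aRKO (log2 fold change 2.98, SE 0.18, adjusted p = 2.95e-05). Csf1, a ligand of the receptor that keeps microglia alive, had 20.97, 31.7 and 44.6 in WT and 684, 818, 910.1 and 1089 in APP-KI;C3aRKO (log2 fold change 4.70, SE 0.15, adjusted p = 1.56e-06). Igf1, an insulin-like growth factor, had 10.2, 30.1 and 26.02 in WT and 155, 277, 243 and 361 in APP-KI;C3aRKO (log2 fold change 3.47, SE 0.15, adjusted p = 7.24e-06). For all 3 the groups lay well apart, and WT replicate 4 was the lowest WT library in each. In the ZE24 pair the median log2 difference of the list was 2.11 and 34 of 34 members were above 0. Over the settings 21 to 34 members were called, with 21 when replicate 1 was added.

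Genes the study used for reactive and phagocytic microglia were mostly higher too. These lists are not separate from the disease-associated list, which also holds Trem2, Tyrobp, Axl, Apoe, B2m and Cd68. All 6 tested genes of the study reactive list were higher (median 1.28), as were 5 of the 7 genes measured by the study for phagocytosis (median 0.45); both are study lists and not independent evidence. Of these, 6 of 6 and 5 of 7 were above 0 in the ZE24 pair. Trem2, a lipid-sensing receptor that binds plaque material, had 812, 796 and 785 in WT and 1351, 1879, 1876 and 1682 in APP-KI;C3aRKO (log2 fold change 1.06, SE 0.10, adjusted p = 2.01e-04). Tyrobp, its signalling adaptor, had 338, 420.2 and 422 in WT and 803, 1337, 1342 and 1185 in APP-KI;C3aRKO (log2 fold change 1.502, SE 0.09, adjusted p = 2.30e-05). Cd68, a lysosomal membrane protein of phagocytes, had 565, 616 and 537 in WT and 1249.8, 1425, 1239 and 1413 in APP-KI;C3aRKO (log2 fold change 1.21, SE 0.08, adjusted p = 4.19e-05). No library of 1 group reached the other in these 3 genes, and replicate 2 was below the other double mutant libraries for Trem2 and Tyrobp. Hexa rose by 1.05, SE 0.10 on the log2 scale, the Fc receptor chain Fcer1g by 0.45, SE 0.07 and the inhibitory Fc receptor Fcgr2b by 0.45, SE 0.07, with adjusted p of 1.78e-04, 0.00179 and 0.00147. Was, an actin regulator of blood cells, had 141, 151 and 152 in WT and 112, 110.1, 102 and 109 in APP-KI;C3aRKO and was lower (log2 fold change -0.45, SE 0.06, adjusted p = 7.29e-04). Rac2, a small GTPase, had 105, 105 and 126 in WT and 97.3, 104, 99.0 and 102 in APP-KI;C3aRKO; its groups did not overlap, and it did not pass (log2 fold change -0.15, SE 0.07, adjusted p = 0.124). With replicate 1 added, B2m, Hexa, Cd68, Fcer1g and Fcgr2b were no longer called, at log2 fold changes of 0.50, 0.79, 0.87, 0.19 and 0.35. The joint fit ended the calls of B2m, Fcer1g, Fcgr2b and Was.

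Homeostatic genes were lower in most cases. Of 28 members of the homeostatic list, 21 were lower and 1 higher (median -0.51), and all 8 genes of the study homeostatic list, which is not independent evidence, were lower (median -0.77). The member that was higher was Tgfbr2, a chain of the TGF-beta receptor (0.46). Tmem119, a surface protein that sets microglia apart from other brain macrophages, had 1786, 1954 and 1726 in WT and 965, 893, 744 and 761 in APP-KI;C3aRKO (log2 fold change -1.11, SE 0.10, adjusted p = 1.62e-04). P2ry12, the ADP receptor that guides resting processes, had 2006, 2329 and 1986 in WT and 1229, 1189, 1100.4 and 1388 in APP-KI;C3aRKO (log2 fold change -0.78, SE 0.10, adjusted p = 8.76e-04). Nrip1, a nuclear receptor corepressor, had 765, 765 and 672 in WT and 301, 284, 270.3 and 328 in APP-KI;C3aRKO (log2 fold change -1.30, SE 0.08, adjusted p = 3.33e-05). Double mutant libraries lay below WT libraries in each case, with no overlap. Crybb1, a crystallin that marks microglia, had 217, 189 and 172 in WT and 53.8, 50.4, 37.8 and 38.1 in APP-KI;C3aRKO (log2 fold change -2.05, SE 0.11, adjusted p = 1.44e-05). Ecscr, a small surface protein, had 193, 182 and 166 in WT and 61.1, 39.5, 45.8 and 39.5 in APP-KI;C3aRKO (log2 fold change -1.92, SE 0.10, adjusted p = 1.34e-05). Adgrg1, an adhesion receptor, fell by 1.03 on the log2 scale, Il10ra, a chain of the interleukin 10 receptor, by 0.76, Il21r by 0.60 and the TGF-beta receptor chain Tgfbr1 by 0.57. Cx3cr1, the fractalkine receptor, fell by 0.35 (6075, 6634 and 6284 in WT and 4848, 4858, 4669 and 5537 in APP-KI;C3aRKO). Cst3, the most abundant member by scaled value, had 9110.3, 10837 and 9486 in WT and 8016, 9583, 9657 and 9699 in APP-KI;C3aRKO and did not pass (log2 fold change -0.11, adjusted p = 0.466). In the ZE24 pair 26 of the 28 members were at or under 0, with a median log2 difference of -0.51, and 0 of the 8 genes of the study list were above 0. In the joint fit 9 members of the long list and 5 of the study list were called as lower. Adding replicate 1 left 6 members of the long list and 3 of the study list called as lower. It ended the calls of Tmem119, P2ry12, Tgfbr1, Adgrg1 and Cx3cr1, at log2 fold changes of -1.52, -1.02, -0.56, -1.39 and -0.62. Cx3cr1 was also no longer called without the series term, with the replicate block, or on leaving out WT replicate 4, 5 or 6 or APP-KI;C3aRKO replicate 2, 3 or 4 (log2 fold changes -0.37 to -0.32).

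The sort was checked on 10 genes that define microglia. Their summed scaled value was 29169, 31269.5 and 29644 in WT and 22340.0, 25844, 22899.5 and 25951 in APP-KI;C3aRKO, and none of the 10 was at 0 in any of the 7 libraries. The double mutant sums lay below the WT sums, as 6 of the 10 markers were lower and 0 higher (median -0.33), and 0 of the 10 were above 0 in the ZE24 pair. Csf1r, the survival receptor and the most abundant of them by scaled value, had 8986, 9823 and 9128 in WT and 6808, 8189, 7283 and 7953 in APP-KI;C3aRKO (log2 fold change -0.32, SE 0.10, adjusted p = 0.0430). That call was lost on leaving out any of the libraries just named for Cx3cr1, with log2 fold changes of -0.36 to -0.28, and with replicate 1 added, at -0.53. In replicate 1 the marker sum was 9957.

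Transcription factors of microglia moved both ways. Of 18 tested, 5 were higher and 6 lower, beside 16.5% and 19.3% over all genes. Their median of -0.05 lay at the level of all genes, and 7 were above 0 in the ZE24 pair (median -0.11). Bhlhe40, a repressor that binds E-boxes, had 2.90, 6.61 and 8.502 in WT and 111, 139, 158 and 179.7 in APP-KI;C3aRKO (log2 fold change 4.41, SE 0.15, adjusted p = 2.29e-06). Its relative Bhlhe41 had 145, 192 and 172 in WT and 262, 283, 269 and 282 in APP-KI;C3aRKO (log2 fold change 0.68, SE 0.07, adjusted p = 2.51e-04). Sall1, a zinc finger factor of microglial identity, had 1878, 1626 and 1545 in WT and 1139, 994, 925 and 1083 in APP-KI;C3aRKO (log2 fold change -0.68, SE 0.07, adjusted p = 3.52e-04). Groups did not overlap for these, and Sall1 alone of them was lower. Spi1, which encodes PU.1, fell by 0.24 on the log2 scale, Mef2a by 0.30, and Tfeb and Tfe3, which drive lysosomal genes, by 0.20 and 0.43, while Mitf of the same family was higher (0.62). Once replicate 1 was added 0 of the 17 then tested passed as lower, and Sall1 was at -0.83. Without WT replicate 5, 3 of 17 were lower, and the joint fit ended the call of Bhlhe41.

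The P2ry12 promoter (chr3:59262936-59263235, minus strand) is shown as that of a lowered homeostatic gene; capitals mark TCACGTG read on either strand, a string that contains the E-box CACGTG, which in turn contains ACGTG. 
P2ry12: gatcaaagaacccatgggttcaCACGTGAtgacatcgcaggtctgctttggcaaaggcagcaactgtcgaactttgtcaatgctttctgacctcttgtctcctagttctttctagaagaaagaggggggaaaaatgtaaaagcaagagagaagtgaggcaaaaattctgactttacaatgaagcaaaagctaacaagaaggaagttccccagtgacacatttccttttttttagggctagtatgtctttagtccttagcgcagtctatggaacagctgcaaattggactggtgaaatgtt
TCACGTG was found in 10.5% of the 19 homeostatic promoters in the table and in 5.92% of those of all tested genes. 

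The study hypoxia module was higher in nearly every member. This set holds targets of hypoxia-inducible factor 1, whose alpha subunit is kept low by oxygen-dependent prolyl hydroxylases. Of 25 members tested, 24 were higher and 0 lower (median 1.16), and as a study list it is not independent evidence. Adm was not tested because its mean scaled value was under 1. Hif1a, the alpha subunit itself, had scaled values of 142, 157 and 179 in WT and 619.8, 1010.2, 849 and 1193 in APP-KI;C3aRKO (log2 fold change 2.44, SE 0.14, adjusted p = 1.92e-05). Egln3, one of the prolyl hydroxylases, had 3.30, 3.58 and 4.46 in WT and 47.5, 84.9, 69.7 and 84.6 in APP-KI;C3aRKO (log2 fold change 3.86, SE 0.13, adjusted p = 2.29e-06). Vegfa, an angiogenic growth factor, had 6.999, 7.60 and 15.6 in WT and 40.1, 40.6, 34.5 and 15.4 in APP-KI;C3aRKO (log2 fold change 1.59, SE 0.39, adjusted p = 0.0162). Hif1a and Egln3 did not overlap between groups, while APP-KI;C3aRKO replicate 5 reached the WT range for Vegfa. The immune ligand Tnfsf8 had a log2 fold change of 2.89, the Wnt receptor Fzd7 of 2.09, the syndecan Sdc3 of 1.82, and Bcl2, which protects against apoptosis, of 1.53. Slc2a1, the main glucose transporter of many cells, had 1.201, Pdk1, which holds pyruvate back from mitochondria, 0.68, and Bnip3, a mitophagy receptor, 0.80. Adjusted p in these 7 genes lay between 1.02e-05 (Tnfsf8) and 0.00229 (Bnip3). Another 4, Eif4b (0.96), Maged1 (0.94), Fbxo21 (0.58) and the oxidoreductase Ero1l (0.52), were also higher. Ndrg1 had 3.03, 3.98 and 4.29 in WT and 4.16, 6.06, 5.58 and 4.46 in APP-KI;C3aRKO and did not pass (log2 fold change 0.32, SE 0.12, adjusted p = 0.0787). Fam162a had 11.7, 12.1 and 11 in WT and 16.1, 20.2, 18.8 and 16.4 in APP-KI;C3aRKO (log2 fold change 0.57, SE 0.09, adjusted p = 0.00287), and with replicate 1, where it was at 0, its log2 fold change turned to -0.17.

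Every tested member of the module was above 0 in the ZE24 pair, with a median log2 difference of 0.81. Over the settings 14 to 25 members were called. Adding replicate 1 ended 8 calls, those of Aldoa, Pfkfb3, Vegfa, Pgam1, Ero1l, Sdc3, Fam162a and Bnip3. The joint fit ended the calls of Pfkfb3, Vegfa, Pgam1, Ero1l, Maged1, Fam162a, Fbxo21, Bcl2, Bnip3 and Pgm1. Vegfa also lost its call without APP-KI;C3aRKO replicate 2, WT replicate 4 or WT replicate 5, with log2 fold changes of 1.27 to 1.42.

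Glycolysis genes showed the same direction, but many of them are also in the hypoxia module. Slc2a1, Pfkl, Pfkfb3, Aldoa, Pgk1, Pgam1, Ldha, Pdk1 and Slc16a3 are in both lists and all were higher, so the lists are not separate. Tpi1, Pkm, Hk3 and the members that did not pass lie outside the module. Of 21 members, 15 were higher and 1 lower (median 0.77), and 19 of 21 were above 0 in the ZE24 pair. Tpi1, which interconverts the triose phosphates, had 37.2, 39.1 and 42.2 in WT and 95.6, 179, 153 and 154 in APP-KI;C3aRKO (log2 fold change 1.78, SE 0.13, adjusted p = 5.21e-05). Pkm, which makes pyruvate, had 210.2, 231 and 257 in WT and 525, 978, 809 and 816 in APP-KI;C3aRKO (log2 fold change 1.67, SE 0.12, adjusted p = 5.06e-05). Slc16a3, an exporter of lactate, had 29.1, 27.3 and 44.3 in WT and 61.3, 122, 95.1 and 86.3 in APP-KI;C3aRKO (log2 fold change 1.37, SE 0.19, adjusted p = 0.00122). APP-KI;C3aRKO replicate 2 was the lowest double mutant library in all 3, and above every WT library. Pgk1 (1.67), Aldoa (1.199), Ldha (1.16), Pfkl (0.78), Pgam1 (0.77) and Pfkfb3 (0.47) were also higher. Hexokinase Hk3 was lower (-0.25), and Slc2a3, Hk1, Hk2, Pfkp and Pfkm did not pass. Over the settings 9 to 16 members were higher, 9 of them with replicate 1 added. The number lower was 0 without APP-KI;C3aRKO replicate 3 or 4 or WT replicate 6 and 2 without APP-KI;C3aRKO replicate 2 or 5 or WT replicate 4.

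The letters ACGTG, the core that hypoxia-inducible factors bind, were searched for on both strands in the same promoters. They stood in 19.5% of all promoters of the table, in 25.5% of those of genes tested, in 25.7% of those of genes higher and in 21.2% of those of genes lower. Of the hypoxia module, 22 of 25 tested genes had a promoter in the table and 13 (59.1%) held the letters, as did 13 of 20 (65.0%) of the glycolysis list, with which the module shares members. In the disease-associated list the count was 3 of 25. Promoters of 3 members are printed, Egln3 (chr12:54203825-54204124, minus strand), Pgk1 (chrX:106186850-106187149, plus strand) and Bnip3 (chr7:138909457-138909756, minus strand). All 3 are among the 13 of 22 that held the letters, so they do not stand for the whole module. Capitals mark ACGTG on either strand, or CACGTG where both strands overlap. 
Egln3: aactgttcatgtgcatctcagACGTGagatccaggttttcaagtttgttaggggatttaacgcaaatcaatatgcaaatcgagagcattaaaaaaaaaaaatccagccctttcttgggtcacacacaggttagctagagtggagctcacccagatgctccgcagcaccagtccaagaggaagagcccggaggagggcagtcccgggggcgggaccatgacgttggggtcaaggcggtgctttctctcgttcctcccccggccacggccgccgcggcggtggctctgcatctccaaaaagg
Pgk1: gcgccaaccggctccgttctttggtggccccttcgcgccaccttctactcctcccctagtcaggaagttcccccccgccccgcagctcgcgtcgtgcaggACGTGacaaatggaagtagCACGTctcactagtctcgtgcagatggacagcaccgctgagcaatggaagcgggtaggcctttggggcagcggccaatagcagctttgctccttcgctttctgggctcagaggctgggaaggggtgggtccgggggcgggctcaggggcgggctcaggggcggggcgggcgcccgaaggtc
Bnip3: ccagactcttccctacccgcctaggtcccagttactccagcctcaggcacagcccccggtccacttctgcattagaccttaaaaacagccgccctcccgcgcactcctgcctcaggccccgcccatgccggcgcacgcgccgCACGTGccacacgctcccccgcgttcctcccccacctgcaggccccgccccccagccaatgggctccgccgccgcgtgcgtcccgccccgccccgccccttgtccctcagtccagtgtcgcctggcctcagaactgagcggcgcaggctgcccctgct
Egln3 held the letters once, Pgk1 at 2 places and Bnip3 in a CACGTG, which reads the same on both strands. A match of 5 letters describes the sequence and is not a measured binding site.

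Energy and protein synthesis genes rose in many members. Nuclear genes of oxidative phosphorylation, which code for most subunits of the respiratory chain, were higher in 44 of 74 and lower in 0 (median 0.35). Cox6a2, an isoform of a cytochrome oxidase subunit best known from muscle, had 1.61, 2.54 and 2.42 in WT and 45.5, 32.1, 27.6 and 42.1 in APP-KI;C3aRKO (log2 fold change 3.56, SE 0.20, adjusted p = 1.85e-05). Ndufa1, of complex I, had 7.83, 7.48 and 7.70 in WT and 22.6, 34.2, 35.8 and 30.4 in APP-KI;C3aRKO (log2 fold change 1.83, SE 0.12, adjusted p = 4.56e-05). Both had no overlap between groups. Atp5a1, the most abundant member by scaled value, had 271, 294 and 283 in WT and 268, 339, 329 and 377 in APP-KI;C3aRKO and did not pass (log2 fold change 0.19, SE 0.08, adjusted p = 0.0977). Ribosomal protein genes were higher in 61 of 76 and lower in 0 (median 0.79). Rpl41 had 67.7, 89.7 and 87.7 in WT and 194, 228, 313 and 244 in APP-KI;C3aRKO (log2 fold change 1.53, SE 0.10, adjusted p = 4.77e-05). Rpl4, the most abundant of them by scaled value, had 378, 516 and 519 in WT and 729, 923, 1000.2 and 1026 in APP-KI;C3aRKO (log2 fold change 0.93, SE 0.06, adjusted p = 3.18e-05). The groups did not overlap in either. Rpl26 varied within both groups (23.9, 41.9 and 10.7 in WT and 119.5, 32.6, 60.6 and 167 in APP-KI;C3aRKO), and it was no longer called without the series term, by edgeR, or on leaving out WT replicate 4 or 6 or APP-KI;C3aRKO replicate 2, 4 or 5 (log2 fold changes 1.34 to 1.92). For the ZE24 pair, 59 of 74 oxidative phosphorylation genes and 72 of 76 ribosomal genes were above 0. When replicate 1 was added, 12 and 20 were called, and Cox6a2 and Rpl4 were not, at log2 fold changes of 2.84 and 0.63. The joint fit called 11 oxidative phosphorylation genes and 30 ribosomal genes, beside 510 of 12433 called higher over all genes.

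Most genes of the study lipid list were higher. Microglia take up lipoproteins and myelin debris and must store, hydrolyse or export the cholesterol they gain. Of the 14 genes of the study lipid list, which is not independent evidence, 13 were higher and 0 lower (median 1.26), and 13 were above 0 in the ZE24 pair (median 1.28). Apoe, the main lipid carrier of the brain, had scaled values of 2955, 5648 and 5882 in WT and 14607, 27744, 26758 and 30615 in APP-KI;C3aRKO (log2 fold change 2.30, SE 0.11, adjusted p = 1.02e-05). Lpl, which frees fatty acids from lipoproteins, had 14.3, 19.5 and 26.7 in WT and 831, 841, 934 and 1078 in APP-KI;C3aRKO (log2 fold change 5.45, SE 0.14, adjusted p = 8.39e-07). Ch25h, which makes 25-hydroxycholesterol, had 0.888, 2.64 and 1.27 in WT and 28.1, 47.3, 31.0 and 31.7 in APP-KI;C3aRKO (log2 fold change 3.76, SE 0.21, adjusted p = 1.85e-05). All 3 were higher in every double mutant library than in any WT library. Fabp3, a second fatty acid binding protein, had 0.518, 1.14 and 1.32 in WT and 8.92, 19.9, 16.6 and 21.4 in APP-KI;C3aRKO (log2 fold change 3.04, SE 0.14, adjusted p = 9.16e-06). Nceh1, which hydrolyses cholesterol esters, had 20.7, 25.6 and 30.6 in WT and 99.9, 170.4, 156 and 201 in APP-KI;C3aRKO (log2 fold change 2.49, SE 0.12, adjusted p = 1.07e-05). Apoc4 was at 0 in WT replicate 4 and under 1 in the other WT libraries (0, 0.172 and 0.0144 in WT and 1.58, 2.88, 1.62 and 1.24 in APP-KI;C3aRKO), so its log2 fold change followed the pseudocount, with 1.37 in the fit, 3.62 at a pseudocount of 0.1 and 5.07 by DESeq2. Apoc4 and Fabp3 reached the minimum mean of 1 only through the double mutant libraries, so their calls among the 13 are description only. Ch25h and Fabp3 were at 4.40 and 3.86 at a pseudocount of 0.1. Npc2, which carries cholesterol out of the lysosome, rose by 0.96 on the log2 scale, Soat1, which esterifies it, by 0.90, and the acid lipase Lipa by 0.58 with overlapping groups. Sorl1, a sorting receptor, had 172, 135 and 182 in WT and 155, 229, 191 and 151 in APP-KI;C3aRKO and did not pass (log2 fold change 0.14, SE 0.17, adjusted p = 0.557). Adding replicate 1 ended the calls of Fabp3, Lipa, Npc2 and Dgat2, at log2 fold changes of 2.42, 0.39, 0.66 and 0.75, and Apoc4 was then no longer tested. The joint fit ended those of Apobec1, Plin2, Lipa, Npc2 and Dgat2, and Apoc4 had a mean under 1 and was not tested without APP-KI;C3aRKO replicate 2, 3 or 4.

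In the synthesis of cholesterol and fatty acids, 20 of 28 genes were higher and 0 lower (median 0.70). Acaca, the first committed enzyme of fatty acid synthesis, had 15.9, 16.6 and 17.3 in WT and 155, 163, 145 and 177 in APP-KI;C3aRKO (log2 fold change 3.18, SE 0.07, adjusted p = 4.93e-07). Insig1, which restrains the sterol response, had 10.1, 15.4 and 16.0 in WT and 35.3, 34.2, 31.7 and 35.0 in APP-KI;C3aRKO (log2 fold change 1.25, SE 0.13, adjusted p = 2.76e-04). The groups did not overlap for either, and 26 of the 28 genes were above 0 in the ZE24 pair. Sc5d, a late enzyme of cholesterol synthesis, had a log2 fold change of 1.25 and the desaturase Scd2 of 1.06. Addition of replicate 1 left 8 of the 28 called and Scd2 not (0.74), and the joint fit called 7.

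Export and storage genes moved both ways, and their counts stand beside 16.5% higher and 19.3% lower over all genes. Among 11 genes of lipoproteins and cholesterol efflux, 4 were higher and 3 lower (median 0.01), with 4 above 0 in the ZE24 pair (median -0.03). Apoc4 is among the 4 higher, and here too its call is description only. Pltp, a phospholipid transfer protein, had 19.4, 49.96 and 45.1 in WT and 10.9, 18.0, 20.02 and 13.6 in APP-KI;C3aRKO (log2 fold change -1.24, SE 0.16, adjusted p = 0.00103). WT replicate 4 lay inside the double mutant range. Abca1, an exporter of cholesterol, fell by 0.67 on the log2 scale, and Abcg1 did not pass. Among 14 genes of lipid droplets, 6 were higher and 5 lower (median 0.16), with 7 above 0 in the ZE24 pair (median 0.06). Plin2, the coat protein of droplets, had 28.4, 50.6 and 50.2 in WT and 45.7, 90.5, 88.3 and 76.7 in APP-KI;C3aRKO (log2 fold change 0.72, SE 0.07, adjusted p = 2.11e-04), and APP-KI;C3aRKO replicate 2 lay below WT replicates 5 and 6. Dgat2, which makes triglycerides, had 2.59, 3.44 and 6.47 in WT and 7.26, 9.41, 11.2 and 14.2 in APP-KI;C3aRKO (log2 fold change 1.14, SE 0.20, adjusted p = 0.00390). Lipe, a hydrolase that breaks stored lipid down, had 68.1, 60.1 and 52.3 in WT and 45.2, 34.2, 35.8 and 35.1 in APP-KI;C3aRKO and was lower (log2 fold change -0.64, SE 0.06, adjusted p = 2.64e-04). Plin2 lost its call without the series term and in the joint fit, and Pltp with the replicate block, under which Plin2 and Dgat2 were at 1.10 and 1.77. Over the settings 1 to 6 of the droplet genes were higher and 1 to 5 lower, with 2 lower without WT replicate 5 and 3 without WT replicate 6.

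Lysosomal genes rose broadly. Of 35 members, 25 were higher and 0 lower (median 0.58), and 29 of 35 were above 0 in the ZE24 pair, with a median difference of 0.36. Atp6v0d2 is among the 25, and its call is description only, as given above. Cd63, a tetraspanin of late endosomes, had 62.7, 73.7 and 75.9 in WT and 167, 292, 303 and 289 in APP-KI;C3aRKO (log2 fold change 1.798, SE 0.10, adjusted p = 2.25e-05). Ctsl, a cysteine protease, had 699, 755 and 808 in WT and 1782, 1985, 2407 and 2691 in APP-KI;C3aRKO (log2 fold change 1.51, SE 0.11, adjusted p = 6.57e-05). Ctsd, an aspartic protease and the most abundant member by scaled value, had 4371, 5099 and 4577 in WT and 8069, 14389, 11893 and 13042 in APP-KI;C3aRKO (log2 fold change 1.27, SE 0.14, adjusted p = 4.19e-04). In these genes APP-KI;C3aRKO replicate 2 was the lowest double mutant library and still above all WT libraries. Gla, the alpha-galactosidase, had 9.40, 11.7 and 11.5 in WT and 27.0, 34.3, 38.4 and 30.5 in APP-KI;C3aRKO (log2 fold change 1.47, SE 0.09, adjusted p = 2.34e-05). Adding replicate 1 left 5 of the 35 called, and Ctsd was not (log2 fold change 0.88). The joint fit left 13 of the 35 called and also ended the call of Ctsd. TCACGTG, the core of the element by which TFEB and related factors drive lysosomal genes, stood in 3.74% of all promoters, 5.92% of those of genes tested and 9 of 28 (32.1%) of the lysosomal list. The Ctsd promoter (chr7:142387778-142388077, minus strand) is printed as that of the member with the highest scaled values; capitals mark TCACGTG on either strand, and where the 2 strands overlap the capitals run on. 
Ctsd: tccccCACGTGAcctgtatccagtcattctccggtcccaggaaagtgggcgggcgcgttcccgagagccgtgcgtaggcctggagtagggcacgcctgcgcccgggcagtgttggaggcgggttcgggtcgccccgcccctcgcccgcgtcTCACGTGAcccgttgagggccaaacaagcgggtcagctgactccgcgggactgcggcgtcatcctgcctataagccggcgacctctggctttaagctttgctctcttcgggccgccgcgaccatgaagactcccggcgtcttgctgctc
The letters stood there 3 times over both strands.

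Antigen presentation genes rose in part. Of 12 genes of MHC class I presentation, 6 were higher and 0 lower (median 0.34), beside 16.5% and 19.3% over all genes. H2-D1, a class I heavy chain, had 491, 838 and 787 in WT and 1198, 1594, 2054 and 2552 in APP-KI;C3aRKO (log2 fold change 1.31, SE 0.15, adjusted p = 4.26e-04). Nlrc5, the transactivator of class I genes, had 24.6, 32.8 and 28.3 in WT and 84.6, 48.0, 78.1 and 46.2 in APP-KI;C3aRKO (log2 fold change 1.11, SE 0.23, adjusted p = 0.00788). The light chain B2m had 910.4, 1281 and 1057 in WT and 1629, 1999.7, 2133 and 2687 in APP-KI;C3aRKO (log2 fold change 0.92, SE 0.12, adjusted p = 9.43e-04). Groups did not overlap in any of the 3. Of 10 class II and costimulatory genes, 4 were higher and 1 lower (median 0.45), beside the same shares over all genes. Cd74, the invariant chain, had 668, 1277 and 1412 in WT and 2835, 2259, 2962 and 5736 in APP-KI;C3aRKO (log2 fold change 1.55, SE 0.31, adjusted p = 0.00671). H2-Aa, a class II alpha chain, had 193, 333 and 345 in WT and 627, 443, 624 and 1114 in APP-KI;C3aRKO (log2 fold change 1.198, SE 0.29, adjusted p = 0.0163). APP-KI;C3aRKO replicate 5 was the highest library for both. Cd80, a costimulatory ligand, was the member that was lower (-0.58). H2-Aa and H2-Ab1, its beta chain (1.09), lost their calls without APP-KI;C3aRKO replicate 2, WT replicate 4 or WT replicate 5 (log2 fold changes 0.99 to 1.26 and 0.82 to 1.15), which left 2 class II genes higher, and 2 were lower without APP-KI;C3aRKO replicate 2 or 5 or WT replicate 4. For 10 of the 12 class I genes and 7 of the 10 class II genes the ZE24 pair was above 0 (medians 0.26 and 0.83). In the fit with replicate 1, 0 class II genes and 1 class I gene (Nlrc5) passed, and H2-D1 and Cd74 were at log2 fold changes of 0.96 and 1.32.

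Few interferon-stimulated genes were called, and those higher were near the share of all genes. Of 23 tested, 3 were higher and 0 lower (median 0.17), beside 16.5% and 19.3% over all genes. Zbp1, a sensor of Z-form nucleic acid, had 6.56, 10.5 and 8.82 in WT and 11.2, 10.6, 15.4 and 12.8 in APP-KI;C3aRKO (log2 fold change 0.47, SE 0.14, adjusted p = 0.0340). Bst2, which tethers viruses to the membrane, had 20.47, 26.5 and 22.7 in WT and 21.5, 38.5, 42.9 and 34.7 in APP-KI;C3aRKO (log2 fold change 0.47, SE 0.13, adjusted p = 0.0266), and WT replicate 5 and APP-KI;C3aRKO replicate 2 overlapped. Zbp1 was no longer called on leaving out WT replicate 4 or 6 or APP-KI;C3aRKO replicate 2, 4 or 5 (0.38 to 0.48), nor Bst2 on leaving out WT replicate 5 or 6 or APP-KI;C3aRKO replicate 3 or 4 (0.34 to 0.47). By limma 0 of the 23 passed with replicate 1 added or in the joint fit, 1 with the replicate block, 6 by DESeq2 and 4 by edgeR. In the ZE24 pair 22 of the 23 were above 0, with a median log2 difference of 0.46, and in the ZE26 libraries alone the median was -0.01. Without APP-KI;C3aRKO replicate 2 or WT replicate 4, 2 were higher and 2 lower; the number higher was 5 without APP-KI;C3aRKO replicate 3, 1 without APP-KI;C3aRKO replicate 4 and 0 without WT replicate 6.

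Complement genes went both ways. Of 13 tested, 1 was higher, C1qc (0.25), and 5 were lower, C3ar1 included (median -0.09), beside 16.5% and 19.3% over all genes. In the ZE24 pair 6 were above 0 (median -0.04). Cfp, the stabilizer of the alternative pathway, had 7.75, 15.6 and 17.3 in WT and 4.39, 6.08, 5.28 and 2.81 in APP-KI;C3aRKO (log2 fold change -1.38, SE 0.26, adjusted p = 0.00535). C4b, a component of the classical pathway, had 61.5, 118 and 131 in WT and 28.9, 51.5, 53.8 and 62.8 in APP-KI;C3aRKO (log2 fold change -1.12, SE 0.08, adjusted p = 5.76e-05). C5ar1, the main receptor for C5a, fell by 0.52 on the log2 scale, and C5ar2, the second one, had 136, 141 and 129 in WT and 100.4, 79.2, 74.7 and 85.7 in APP-KI;C3aRKO (log2 fold change -0.66, SE 0.08, adjusted p = 7.68e-04). WT replicate 4 was the lowest WT library for Cfp and C4b, and it reached the double mutant range for C4b. C1qa, a chain of C1q and the most abundant member by scaled value, had 2572, 3119.6 and 2928 in WT and 2637, 3768, 3801 and 3827 in APP-KI;C3aRKO and did not pass (log2 fold change 0.24, SE 0.09, adjusted p = 0.0623). In the fit with replicate 1 its log2 fold change was -0.01, and Cfp and C5ar2 were no longer called. DESeq2 called 4 higher and 5 lower. Without APP-KI;C3aRKO replicate 2 or WT replicate 4, 3 were higher and 6 lower, and 0 were higher without APP-KI;C3aRKO replicate 3, 4 or 5 or WT replicate 5. With the replicate block C4b was at -0.54 and was not called, nor was Cfp.

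Secreted signals included both rises and falls. Of 16 cytokines, chemokines and growth factors, 8 were higher and 2 lower (median 0.65), beside 16.5% and 19.3% over all genes. In the ZE24 pair 12 were above 0. Ccl6, a macrophage chemokine, had 53.1, 83.2 and 91.2 in WT and 640.4, 814, 769.8 and 621 in APP-KI;C3aRKO (log2 fold change 3.20, SE 0.13, adjusted p = 5.00e-06), with no overlap. The chemokines Ccl3 (2.60), Ccl4 (1.68) and Cxcl16 (0.65) were higher, Ccl2 (-1.03) and Il1a (-0.56) were lower, and Il1b and Tnf did not pass. Over the settings 6 to 10 were higher and 0 to 2 lower, with 1 lower without APP-KI;C3aRKO replicate 3 and 0 without WT replicate 5 or 6.

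Few cell cycle genes passed. Of 21 tested, 2 were higher and 1 was lower (median -0.14), beside 16.5% and 19.3% over all genes. Of the 21, 18 were above 0 in the ZE24 pair (median 0.36), while in the ZE26 libraries alone 2 of 22 were higher and 5 lower (median -0.20). Without APP-KI;C3aRKO replicate 2 or WT replicate 4 the number lower was 5 as well, without APP-KI;C3aRKO replicate 5 it was 2, and without any of the other 4 libraries it was 0. Cdk1, the mitotic kinase, had 4.19, 5.19 and 6.92 in WT and 8.48, 8.64, 9.43 and 10.2 in APP-KI;C3aRKO (log2 fold change 0.66, SE 0.12, adjusted p = 0.00531). Pcna, the sliding clamp of replication, had 24.5, 28.3 and 26.6 in WT and 31.8, 32.4, 35.6 and 39.9 in APP-KI;C3aRKO (log2 fold change 0.37, SE 0.08, adjusted p = 0.00914). Mcm2, of the replicative helicase, had 24.4, 26.7 and 28.8 in WT and 21.4, 20.9, 21.5 and 24.3 in APP-KI;C3aRKO (log2 fold change -0.27, SE 0.08, adjusted p = 0.0270). The groups did not overlap, though the steps between them were small. By limma 0 of the 21 were called with replicate 1 added, with Cdk1 at 0.20 and Mcm2 at -0.44, and Mcm2 lost its call without APP-KI;C3aRKO replicate 3 or 4 or WT replicate 5 or 6 (-0.29 to -0.23).

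Enzymatic digestion of tissue can switch on immediate early genes, so these were counted as well. Of 23 tested, 2 were higher and 0 lower (median -0.16), beside 16.5% and 19.3% over all genes. Above 0 in the ZE24 pair were 17 of the 23 (median 0.29), and in the ZE26 libraries alone the median was -0.19. Egr2, a zinc finger factor, had 12.3, 33.6 and 34.4 in WT and 59.7, 55.7, 80.6 and 48.8 in APP-KI;C3aRKO (log2 fold change 1.22, SE 0.28, adjusted p = 0.0119). Jun, an AP-1 subunit and the most abundant member by scaled value, had 785, 934 and 1141 in WT and 960.4, 795, 899 and 532 in APP-KI;C3aRKO and did not pass (log2 fold change -0.27, SE 0.22, adjusted p = 0.373). WT replicate 4 was low for Egr2, which was at 0.81 without WT replicate 4, without APP-KI;C3aRKO replicate 2 or in the ZE26 libraries alone. Myc had 50.7, 60.6 and 55.4 in WT and 61.6, 62.9, 65.8 and 68.3 in APP-KI;C3aRKO (log2 fold change 0.21, SE 0.06, adjusted p = 0.0302), and lost its call without APP-KI;C3aRKO replicate 2 or 4 or WT replicate 4 or 6 (0.18 to 0.21). Neither Egr2 nor Myc was called in the joint fit (1.23 and 0.19) or with the replicate block (1.57 and 0.27), nor was Myc with replicate 1 added (0.20). The number higher was 4 without APP-KI;C3aRKO replicate 5 and 1 without APP-KI;C3aRKO replicate 2 or 4 or WT replicate 4 or 6, and 1 was lower without APP-KI;C3aRKO replicate 2 or 5 or WT replicate 4.

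Markers of other cells were read as whole lists. A gate on CD45mid and CD11b+ is meant to leave out neurons, astrocytes, oligodendrocytes, endothelial cells and most lymphocytes. Border macrophages, which line vessels and meninges and share much of the microglial surface, were lower in all 8 of 8 markers (median -1.54). Their summed scaled value was 456, 1216 and 1019 in WT and 202, 367, 326 and 259 in APP-KI;C3aRKO. Mrc1, the mannose receptor and the most abundant of them by scaled value, had 254, 639 and 545 in WT and 98.5, 186, 176 and 139 in APP-KI;C3aRKO (log2 fold change -1.69, SE 0.13, adjusted p = 8.71e-05). Cd163, a scavenger receptor for haemoglobin, had 56.7, 199 and 149 in WT and 25.4, 52.6, 47.8 and 37.3 in APP-KI;C3aRKO (log2 fold change -1.67, SE 0.19, adjusted p = 4.37e-04). Lyve1, a hyaluronan receptor, had 9.96, 39.2 and 27.9 in WT and 4.88, 9.73, 6.59 and 7.67 in APP-KI;C3aRKO (log2 fold change -1.63, SE 0.23, adjusted p = 0.00136). WT replicates 5 and 6 were high, and WT replicate 4 lay closer to the double mutant libraries without reaching them for these 3 genes. None of the 8 markers was at 0 in any of the 7 libraries. Fewer border macrophages in the sort and less of these RNAs per cell cannot be told apart in bulk RNA, here or for any marker list. Mgl2, Pltp, Cfp and C4b showed the same pattern over the WT libraries, low in replicate 4 and high in replicates 5 and 6, and whether border macrophages take part in their fall was not tested. In the ZE24 pair the median log2 difference of the 8 markers was -0.91. With the replicate block 0 of the 8 were called, and with replicate 1 added 4 were.

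Endothelial markers split: Flt1, a VEGF receptor and the most abundant of the list by scaled value, had 9.91, 10.8 and 11.95 in WT and 142, 229, 210.0 and 249.7 in APP-KI;C3aRKO and was higher (log2 fold change 4.07, SE 0.11, adjusted p = 9.52e-07), while Pecam1 had 29.99, 37.1 and 35.9 in WT and 17.7, 9.25, 10.7 and 6.05 in APP-KI;C3aRKO (log2 fold change -1.62, SE 0.26, adjusted p = 0.00271) and Cdh5, the cadherin of vessel walls, had 7.18, 9.14 and 7.95 in WT and 4.53, 3.96, 5.23 and 3.58 in APP-KI;C3aRKO (log2 fold change -0.78, SE 0.14, adjusted p = 0.00423). Both of the latter were lower. The endothelial sum, 49.2, 60.0 and 59.3 in WT and 171, 245, 232 and 264 in APP-KI;C3aRKO, followed Flt1. Cldn5 and Ly6c1 were not tested because their mean was under 1. Among 8 astrocyte markers 1 was higher, Gfap (0.873, 1.26 and 1.05 in WT and 5.19, 7.38, 17.9 and 7.74 in APP-KI;C3aRKO, log2 fold change 2.18, SE 0.30, adjusted p = 0.00119), and 1 lower, Slc1a3 (-0.44), the most abundant by scaled value. Gfap was at 2.86 at a pseudocount of 0.1. The astrocyte sum was 317, 317 and 266 in WT and 346, 223, 227 and 219 in APP-KI;C3aRKO, with APP-KI;C3aRKO replicate 2 the highest. Of 7 oligodendrocyte markers tested, Mbp was higher (0.53) and Mag lower (-0.83), and the sum was 159, 235 and 204 in WT and 186, 197, 195 and 232 in APP-KI;C3aRKO, overlapping between groups. Without APP-KI;C3aRKO replicate 2 or WT replicate 4, 4 of the 7 were lower (median -0.77, against -0.40 with all libraries), as were 2 without APP-KI;C3aRKO replicate 5. Leaving out APP-KI;C3aRKO replicate 2 or WT replicate 4 also gave 2 astrocyte markers and 1 neuron marker as lower. Neuron markers summed to 4.13, 6.65 and 6.92 in WT and 7.08, 3.36, 4.60 and 4.01 in APP-KI;C3aRKO, with 6 of 9 (Syt1, Tubb3, Stmn2, Slc17a7, Gad1 and Nefl) under 1 in every library, 2 tested and 0 called. Of 7 monocyte and neutrophil markers Ccr2 was lower (log2 fold change -0.89, SE 0.19, adjusted p = 0.00860), and the sum, 72.0, 57.4 and 378 in WT and 69.0, 77.7, 173 and 38.7 in APP-KI;C3aRKO, was highest in WT replicate 6. Lymphocyte markers summed to 3.403, 4.53 and 3.42 in WT and 34.1, 1.85, 2.58 and 1.55 in APP-KI;C3aRKO, with Cd8a at 6.87 in APP-KI;C3aRKO replicate 2, 3 tested and 0 called. Adding replicate 1 ended the calls of Gfap, Slc1a3, Mbp, Pecam1, Cdh5 and Ccr2, whose log2 fold changes were then 1.68, -0.34, 0.45, -2.23, -1.202 and -1.16. In the ZE24 pair 7 of 8 astrocyte markers were above 0 (median 1.39), 3 of 5 endothelial (0.69), 4 of 7 oligodendrocyte (0.36), 2 of 2 neuron (0.58), 4 of 7 monocyte and neutrophil (0.08) and 3 of 3 lymphocyte markers (1.96). The part of these cell types in the gene groups above was not tested.

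**Figure D3:**
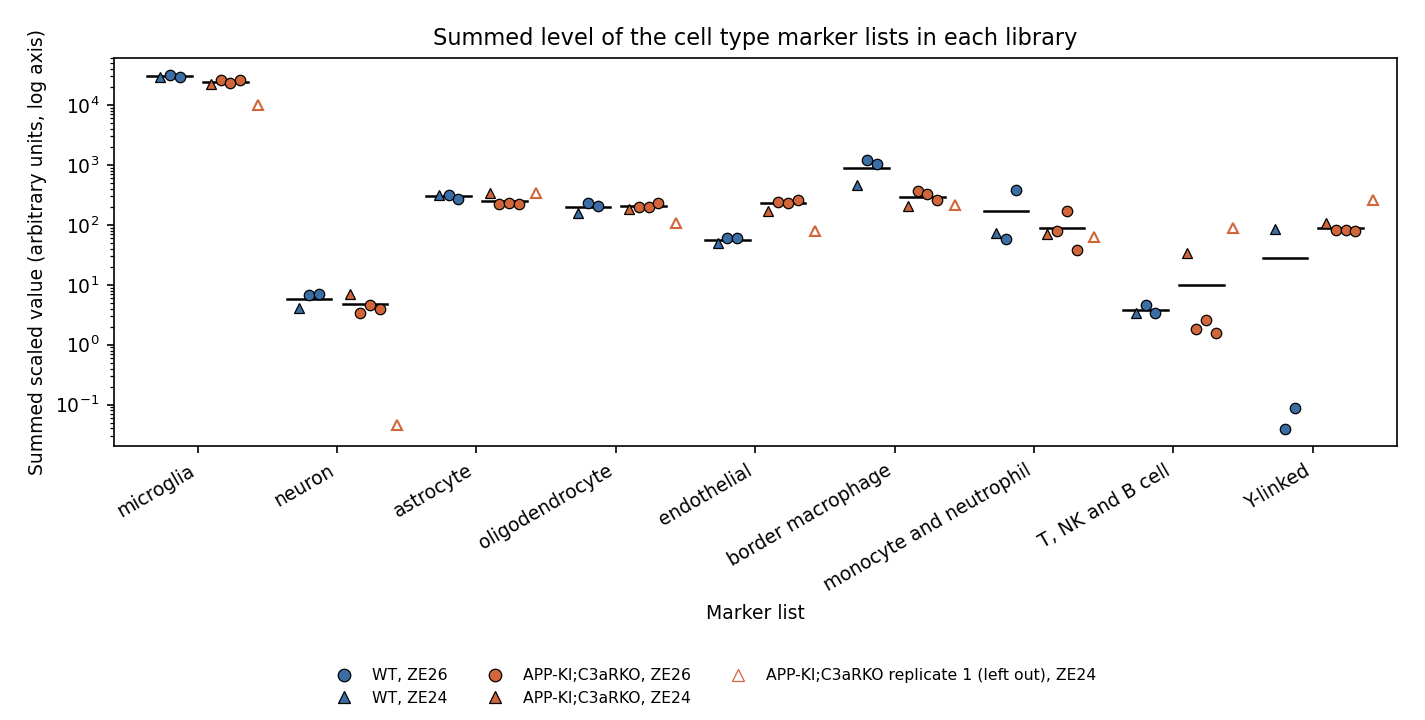
Summed scaled value (log axis, arbitrary units) of each marker list in every WT library (blue) and APP-KI;C3aRKO library (orange), with triangles for ZE24, circles for ZE26, the open triangle for the left-out replicate 1 and bars for group means. Border macrophage sums are lower and endothelial sums higher in every APP-KI;C3aRKO library than in any WT library, and Y-linked sums are near 0 in WT replicates 5 and 6.

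Genes near C3ar1 were counted because the knockout line was backcrossed for only 5 generations. C3ar1 lies at chr6:122847138-122856161 on the minus strand (GRCm38.p6). Within 10 Mb on either side 162 genes were tested, of which 34 were higher and 30 lower, so that 39.5% were called beside 35.7% of all genes, with a median of -0.06. The nearest genes were looked at one by one, a choice made after the counts were seen. Foxj2, the nearest tested gene, was lower with a log2 fold change of -0.21. The C-type lectin receptors Clec4a1 (-0.93), Clec4a3 (-0.97), Clec4a2 (-1.49) and Clec4n (-0.93) on the other side were lower too. The lectins Clec4d (-0.22) and Clec4e (-0.32), which lie just beyond Clec4n, did not pass. Apobec1, which lies nearer than Clec4a2, was higher (0.53), and Necap1 and Slc2a3 did not pass. Clec4a2 had 23.7, 30.03 and 27.7 in WT and 10.5, 8.34, 8.49 and 8.77 in APP-KI;C3aRKO, without overlap. Clec4n is one of the 8 border macrophage markers and had 4.41, 10.6 and 9.25 in WT and 2.25, 5.99, 3.99 and 3.58 in APP-KI;C3aRKO, and Clec4a1, with 7.03, 15.8 and 15.6 in WT and 6.64, 6.34, 7.01 and 4.43 in APP-KI;C3aRKO, was likewise lower in WT replicate 4 than in WT replicates 5 and 6. Whether border macrophages take part in the fall of these lectins was not tested. The C3aR+ cells come from mice without the C3ar1 knockout. Even so, C3ar1 was at 71.0, 81.2 and 37.6 in the WT C3aR+ libraries, near the double mutant libraries. In C3aR+ cells the log2 fold changes of APP-KI against WT were -1.51 for Clec4a1, -1.39 for Clec4a3 and -1.72 for Clec4a2, all called. For Clec4n it was -0.83, not called.

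Against APP-KI the question is what the loss of C3ar1 adds on the plaque-bearing background. By limma 0 of 12751 genes (0%) passed as higher and 0 as lower, with 26 genes at an unadjusted p under 0.05. C3ar1 had 165, 315 and 388 in APP-KI replicates 4, 5 and 6, above all double mutant libraries, and even so its adjusted p was 0.982 (log2 fold change -2.04, SE 0.30). APP-KI replicate 4 had 8076 genes at 0 and a Y-linked sum near 0, and APP-KI replicate 5 had 107 genes at 0. Counts of 0 were also found with replicate 1 added, with median ratio scaling and without the series term, where 42, 24 and 207 genes were under 0.05 before adjustment. Leaving APP-KI replicate 4 out, 1 gene passed as lower. A block on the replicate number in place of the series term, added after the data were seen, called 303 genes higher and 134 lower, although numbers 4 and 5 alone are shared by the groups. Medians of this comparison were 0.28 for the disease-associated list, 0.28 for the homeostatic list and 0.03 for the hypoxia module. The median was 0.01 over the 12102 genes also tested against WT and 0.00467 over all 12751. These comparisons share the double mutant libraries, and a count of 0 does not show that the genotypes were alike.

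In C3aR+ cells, APP-KI against WT shares no library with the comparison above. There 1602 of 12312 genes were higher (13%) and 1194 lower (9.7%), with a median of -0.17. With median ratio scaling the counts were 1846 and 605 and the median -0.03, so a shift over all genes is part of these fold changes. Of the genes tested in both, 1258 were higher in both, which is 63.2% of 1992 higher in APP-KI;C3aRKO and 78.6% of 1600 higher in C3aR+ cells. Lower in both were 927, or 39.8% of 2331 and 77.7% of 1193. With median ratio scaling these shares were 65.0% and 76.2% for the higher lists and 26.7% and 81.3% for the lower lists. No gene was higher here and lower there, and 3 were the reverse. All C3aR+ libraries are of a series of their own and hold the reporter, so series, reporter and sort cannot be told apart.

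The difference between both comparisons was tested directly, in a fit without the series term, so it need not equal the fold changes above subtracted. In that test 39 of 12211 genes (0.319%) passed, 11 with a larger and 28 with a smaller log2 fold change in APP-KI;C3aRKO. C3ar1 led them. In C3aR+ cells it had scaled values of 71.0, 81.2 and 37.6 in WT and 383, 251 and 201 in APP-KI. It fell here but was higher there (log2 fold change 2.14), a difference of -4.27. Although sorted as C3aR+, those WT libraries lay near the double mutant libraries for C3ar1 and below WT replicates 4 to 6. Why they did was not tested. Tfdp1, a partner of E2F factors that was chosen after its values were seen, had 5.79, 3.42 and 4.98 in WT and 26, 39.5 and 24.8 in APP-KI in the same libraries, and 21.5 to 26.2 in the 7 libraries of the comparison above. Its log2 fold change was 2.43 in C3aR+ cells and -0.12 above, a difference of -2.56, and C3ar1 and Tfdp1 passed whichever library was left out. Cdk1 (0.66 and 2.50) and Zbp1 (0.47 and 2.48) also passed, with differences of -1.82 and -1.98. In WT C3aR+ libraries Cdk1 was at 0.836, 1.17 and 1.03 and Zbp1 at 3.63, 2.59 and 2.10. These values lay below WT replicates 4 to 6 (4.19 to 6.92 and 6.56 to 10.5). In APP-KI C3aR+ libraries Cdk1 was at 7.75, 12.6 and 11.3 and Zbp1 at 13.6, 26.8 and 20.9. The double mutant libraries were at 8.48 to 10.2 and 10.6 to 15.4. Cdk1 and Zbp1 were each called with 4 of the 13 libraries left out in turn. In C3aR+ cells 16 of 23 interferon-stimulated genes were higher (median 1.44) and 8 of 21 cell cycle genes (median 1.10); in each list 1 gene, Zbp1 and Cdk1, passed the test of the difference. Leaving out single libraries gave 0 to 51 genes with a larger and 2 to 94 with a smaller change, so the number of differing genes turned on single libraries. Of the disease-associated list, the hypoxia module and the homeostatic list, 0 genes passed this limma test, in which 1669 of all genes had an unadjusted p under 0.05.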

How the data were processed

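RNA-seq of sorted microglia (CD45mid, CD11b+) from 9-month-old mice was used in 20 libraries, 7 of them in the comparison reported. The values deposited by the authors are named FPKM but turned out to be a signal: gene counts over the 75th percentile of the library, not per length, although FPKM had been assumed when the comparisons were designed. According to the authors, reads were trimmed with cutadapt, aligned with TopHat2 (v2.0.9) to mm10 and counted with featureCounts. The series holds no raw counts among the files used here, and whole reads, within 0.01 of a whole number, could be recovered for 100% of the values of each library, for 21315 gene symbols. All values were multiplied by 1 constant (35.2), computed over the 20 libraries.

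Depth in the 7 libraries was 59474448 to 76608464 reads, so that a single read stood for 0.0132 to 0.0177 scaled units. Between replicates the counts varied by 24.2 to 226 times (chi-square per degree of freedom) what counting alone gives, so the precision was set by differences between libraries and not by depth.

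Genes whose scaled values averaged 1 or more were tested with limma 3.58.1 (R 4.3.3; trend, log2 of the scaled value + 1, library series as a term, residual df 4, prior df 3.53) at a Benjamini-Hochberg adjusted p under 0.05. The minimum mean was taken over the libraries of both groups, so a gene could reach it through the double mutant libraries alone. Counting tests on the recovered reads used DESeq2 1.42.0 and edgeR 4.0.16. The comparison with APP-KI used the same fit, and the C3aR+ comparison has no series term, since its 6 libraries are of 1 series. The difference between the comparisons was tested as a contrast of both log2 fold changes in 1 limma fit of 13 libraries with no series term. Counts, sums and promoter searches used Python 3.11.15 with numpy 2.4.6, pandas 2.3.3 and scipy 1.17.1, and plots matplotlib 3.10.9. The fit was also run on simulated data, and no result of that run is reported here.

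The members and the gene lists were chosen with earlier results of these data known. Genes were named by rule: C3ar1 and App, every gene of the study lists, the 10 largest rises and 10 largest falls among called genes whose groups do not overlap and whose mean is at least 5 in the higher group, and of every other list the 4 called members of largest change and the member of highest mean scaled value; a few genes that the rule names are not reported here. Values in every library are given for C3ar1, the 20 genes of largest change and 1 to 3 or more genes of each list.

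Alternatives were replicate 1 added, a joint fit of 13 libraries of the 4 genotypes, the ZE26 libraries alone, no series term, the replicate number as a block, median ratio and quantile scaling, a pseudocount of 0.1, a minimum of 5 or none, no trend, a threshold of 0.0005, DESeq2, edgeR and each library left out in turn. The ZE24 pair, the block for APP-KI, and all alternatives of the C3aR+ and difference tests were added after seeing the data. Replicate 1 was left out by the rule on genes at 0. The C3aRKO libraries enter the joint fit and are otherwise not used here.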

Additional observations from a re-analysis of the deposited data

Results flagged for a closer look

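In groups of 4 libraries a value was noted when it lay far from the other 3 (Dixon's test at 95%). By chance about 1 in 20 groups is noted, and here it was 12 of 165. Of these, 10 were values of APP-KI;C3aRKO replicate 2: scaled values of 1163 for Hexa, 492 for Npc2, 8016 for Cst3, 167 for Cd63 and 2637 for C1qa, all below the other double mutant libraries, and of 45.2 for Lipe, 6.87 for Cd8a and 50.2 for Eif2s3y, above them, with marker sums of 346 for astrocytes and 34.1 for T, NK and B cells, also above. The other 2 were high values of APP-KI;C3aRKO replicate 5, 1885 for Tgfbr1 and 24.3 for Mcm2. Why these libraries stood apart was not tested.

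The test of the difference between APP-KI;C3aRKO against WT and APP-KI against WT in C3aR+ cells passed for C3ar1 (difference of log2 fold changes -4.27), Zbp1 (-1.98) and Cdk1 (-1.82) among the named genes. Over all genes tested 11 had a larger log2 fold change in APP-KI;C3aRKO and 28 a smaller one. By genotype, C3ar1 is deleted in 1 of the comparisons only. Sort, reporter and library series differ along with genotype and cannot be told apart.

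In the left-out APP-KI;C3aRKO replicate 1, marker sums lay above those of every WT library for astrocytes (339), for endothelium (79.3, led by Flt1), for T, NK and B cells (87.5, of which Gzmb was 68.1) and for Y-linked genes (257).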

How the results depend on the processing

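Of the 137 named genes called, 54 lost the call with replicate 1 added, 53 in the joint fit of 13 libraries, 20 with the replicate block, 9 in the ZE26 libraries alone and 15 with at least 1 library left out. Of the 10 largest rises 9 and of the 10 largest falls 6 were called in every alternative. Counts of genes higher and lower moved from 2001 and 2339 to 494 and 344 at a threshold of 0.0005, 510 and 421 in the joint fit and 511 and 439 with replicate 1 added. With the replicate block 1414 were higher and 1558 lower. With single libraries left out 1344 to 1959 were higher and 1242 (without WT replicate 5) to 2466 lower. The other alternatives gave 1609 to 2406 higher and 1687 to 2605 lower. A stricter threshold lowers counts by construction, and otherwise the cause was not tested. Against APP-KI the block gave 303 higher and 134 lower, and single libraries left out gave 0 to 1 lower. For C3aR+ cells the number lower was 605 with median ratio scaling and 608 to 1034 with single libraries left out. For the difference, 7 genes had a larger change with median ratio scaling, and 0 to 51 had a larger and 2 to 94 a smaller change with single libraries left out. Direction turned for Fam162a (-0.17) and C1qa (-0.00652) with replicate 1 added, and for S100a9 (0.88) with the block. Trim30a, near 0 throughout, turned to 0.0104 by DESeq2, 0.00598 by edgeR, 0.0110 with median ratio and 0.00335 with quantile scaling and 0.0237 with the block. With single libraries left out, log2 fold changes ran from -0.0332 to 0.26 for Sorl1, from -0.0673 to 0.0378 for Trim30a and from -1.59 to 0.82 for S100a9. The block rests on replicate numbers 4 and 5, the only ones both groups share, and after group means were taken off, values of libraries with the same number correlated at -0.151 and 0.268. Alternatives for C3aR+ cells and the difference, and the block for APP-KI, were chosen after seeing the data.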
